A study of Mus musculus with 17 samples.

Results

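The 36 genes described here encode subunits of the Polycomb complexes of the mouse, taken by symbol from 24013 gene rows measured in sorted testis germ cells. They were chosen with earlier results of these data known. They were listed by complex: 6 genes of the PRC2 core, 5 accessory PRC2 genes, 2 catalytic PRC1 genes, 11 genes of canonical PRC1, 9 of variant PRC1 and 3 of the complex that removes ubiquitin from histone H2A. Each of the 36 genes had a row and passed the filter on low counts. The libraries came from mice labelled Tert-Tomato/+, in which a Tomato reporter marks cells with activity of the telomerase gene Tert, on a mixed B6/J X B6/N background. All groups carried this reporter, and there was no group without it. GFRA1pos (n = 4) and GFRA1neg (n = 4) were adult undifferentiated spermatogonia by their labels, cells with high reporter signal and no surface Kit, with or without GFRA1, the GDNF co-receptor. KITpos (n = 5) were adult cells with high reporter signal and surface Kit, described in the labels as differentiated spermatogonia. P6gonocyte (n = 4) were TERT+ OCT4-GFP+ cells of day 6 neonates, whose genotype label names Tert-Tomato/+ alone. The labels do not say whether the libraries of a group stem from different animals or cultures. The p-values therefore take in only the spread among these libraries, part of which may be technical.

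Polycomb complexes keep developmental genes silent through marks on histones. PRC2 methylates a lysine of the histone H3 tail through Ezh1 or Ezh2, and PRC1 adds ubiquitin to histone H2A through Ring1 or Rnf2. Canonical PRC1 binds the PRC2 mark through a Cbx protein, whereas variant PRC1 has Rybp or Yaf2 in place of Cbx and is brought to DNA by other subunits such as Kdm2b. Bap1, with an Asxl partner, takes the ubiquitin off again. In male germ cells these complexes are known for silencing of somatic and developmental genes. Only transcript levels were measured here, not the histone marks or the proteins.

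Promoters of 4 genes are printed because these genes had the largest called rise or fall in a comparison below: Phf19 rose most in GFRA1pos against GFRA1neg, Cbx7 fell most and Rbbp4 rose most in KITpos against GFRA1neg, and Suz12 rose most in P6gonocyte against GFRA1pos. The genes that fell most in the first and last of these comparisons, Phc3 and Phf1, are not printed. Each run is the 250 bases before the gene's start in RefSeq on GRCm38.p6, read in the direction of the gene; of the 32 genes with a window, 31 shared 20 letters with their GENCODE transcripts as given, none in reverse, and 1 (Rnf2) had no match. The gene is on the minus strand for Phf19 (chr2:34913977-34914226), Cbx7 (chr15:79932647-79932896) and Rbbp4 (chr4:129335371-129335620), and on the plus strand for Suz12 (chr11:79992856-79993105). Capitals mark the letters TTTCCCGC, one form of the E2F motif, or CACGTG, the E-box bound by Myc and Max proteins, wherever they occur on either strand.
Phf19: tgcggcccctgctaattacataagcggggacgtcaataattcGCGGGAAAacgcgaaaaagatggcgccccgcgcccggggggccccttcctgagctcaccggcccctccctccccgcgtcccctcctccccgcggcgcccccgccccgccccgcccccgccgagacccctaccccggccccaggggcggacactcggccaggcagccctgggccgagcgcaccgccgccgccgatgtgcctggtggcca
Cbx7: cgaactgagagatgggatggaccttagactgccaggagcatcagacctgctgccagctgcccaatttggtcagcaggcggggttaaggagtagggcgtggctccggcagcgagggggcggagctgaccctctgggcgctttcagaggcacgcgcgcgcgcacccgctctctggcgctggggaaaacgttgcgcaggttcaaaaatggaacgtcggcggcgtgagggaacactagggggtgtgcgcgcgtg
Rbbp4: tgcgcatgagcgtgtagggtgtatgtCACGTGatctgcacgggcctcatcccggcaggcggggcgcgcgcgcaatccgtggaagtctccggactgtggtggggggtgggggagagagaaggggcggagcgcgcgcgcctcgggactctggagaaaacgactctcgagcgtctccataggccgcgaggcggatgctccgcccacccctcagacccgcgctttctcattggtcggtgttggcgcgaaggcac
Suz12: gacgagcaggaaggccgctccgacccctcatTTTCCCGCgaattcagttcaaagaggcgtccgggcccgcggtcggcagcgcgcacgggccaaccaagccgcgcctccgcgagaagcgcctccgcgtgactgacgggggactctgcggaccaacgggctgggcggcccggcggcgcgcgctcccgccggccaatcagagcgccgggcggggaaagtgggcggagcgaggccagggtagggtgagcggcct
TTTCCCGC lies at position -208 from the start of Phf19 and at position -219 from that of Suz12, and CACGTG at position -224 in Rbbp4. RefSeq windows were found for 32 of the 36 genes, with 45 windows in all. The E2F letters, TTTCCCGC or TTTGGCGC, were in 2 of the 45 windows, against 1.3% of 32851 promoters. Both windows, of Phf19 and Suz12, are printed above, so the 4 printed windows do not stand for the list. Neither Phc3 nor Phf1 had the E2F letters. CACGTG was in 8 of the 45 windows, against 6.02% of all promoters, and TGACGTCA, the letters bound by Creb proteins, was in 1 window (Cbx8), against 1.55%. The member windows held a median of 20 CpG, against 6 over all promoters. A match is a description of the letters and no binding was measured.

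Library totals ran from 5178352 to 12641907 counts. One deposited column name has GFP where its fellows have GFR, and it was taken for GFRA1pos replicate 1, on which GFRA1pos values rest. The labelled cell types were checked against markers: the summed level of 8 genes of undifferentiated spermatogonia was 1814 to 2273 CPM (counts scaled to library size) in GFRA1pos, 1278 to 1941 in GFRA1neg, 902.5 to 1143 in P6gonocyte and 199 to 421 in KITpos. In GFRA1pos against GFRA1neg 3 of these 8 were called higher and 2 lower. Across 4 general germ cell genes the sum was 843 to 1017 CPM in GFRA1pos, lower than in the other groups. It was 1219 to 1409 in GFRA1neg, 1295 to 1645 in KITpos and 1737 to 1990 in P6gonocyte. Of these 4 genes 2 were called lower in GFRA1pos than in GFRA1neg. The sum of 4 genes of differentiating spermatogonia was 630.5 to 966 CPM in KITpos at most 163 in both other adult groups and 347 to 509 in P6gonocyte, where 3 of 4 were called higher than in GFRA1pos. Transcripts of spermatids, which none of the gates was set for, summed to 57.0 to 1386 CPM over the 6 markers in the 13 adult libraries and to 6.25 to 8.90 CPM in P6gonocyte, where Prm1 was at 0 and Spaca1 made most of the sum. GFRA1pos replicates 2 and 4, GFRA1neg replicate 2 and KITpos replicate 1 were highest, and counts below are also given without these 4 libraries, a choice made after seeing the data. These are bulk samples, so that fewer cells of a type and less RNA per cell cannot be told apart.

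Across the 4 groups, 28 of the 36 Polycomb genes differed in an edgeR quasi-likelihood test with Benjamini-Hochberg adjustment, against 73.5% of all 15451 genes tested. The 8 that did not pass were Ring1, Rnf2, Jarid2, Aebp2, Cbx6, Cbx8, Pcgf1 and L3mbtl2. That share is near the background, and nothing is read from it. Without the 4 libraries highest in spermatid transcripts, 24 passed. KITpos had the highest mean of the 4 groups for 12 genes and the lowest for 14, and P6gonocyte the highest for 11 and the lowest for 3. GFRA1neg had the highest for 6 and the lowest for 11, and GFRA1pos the highest for 7 and the lowest for 8. No such share was computed over all genes, so nothing is read from these counts either. Below, values per library are CPM scaled for library composition and stand in order of replicate, group values are mean ± SD in the order GFRA1pos, GFRA1neg, KITpos and P6gonocyte, and differences are log2 fold changes ± SE with the p adjusted over all 15451 genes.

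**Figure D1:**
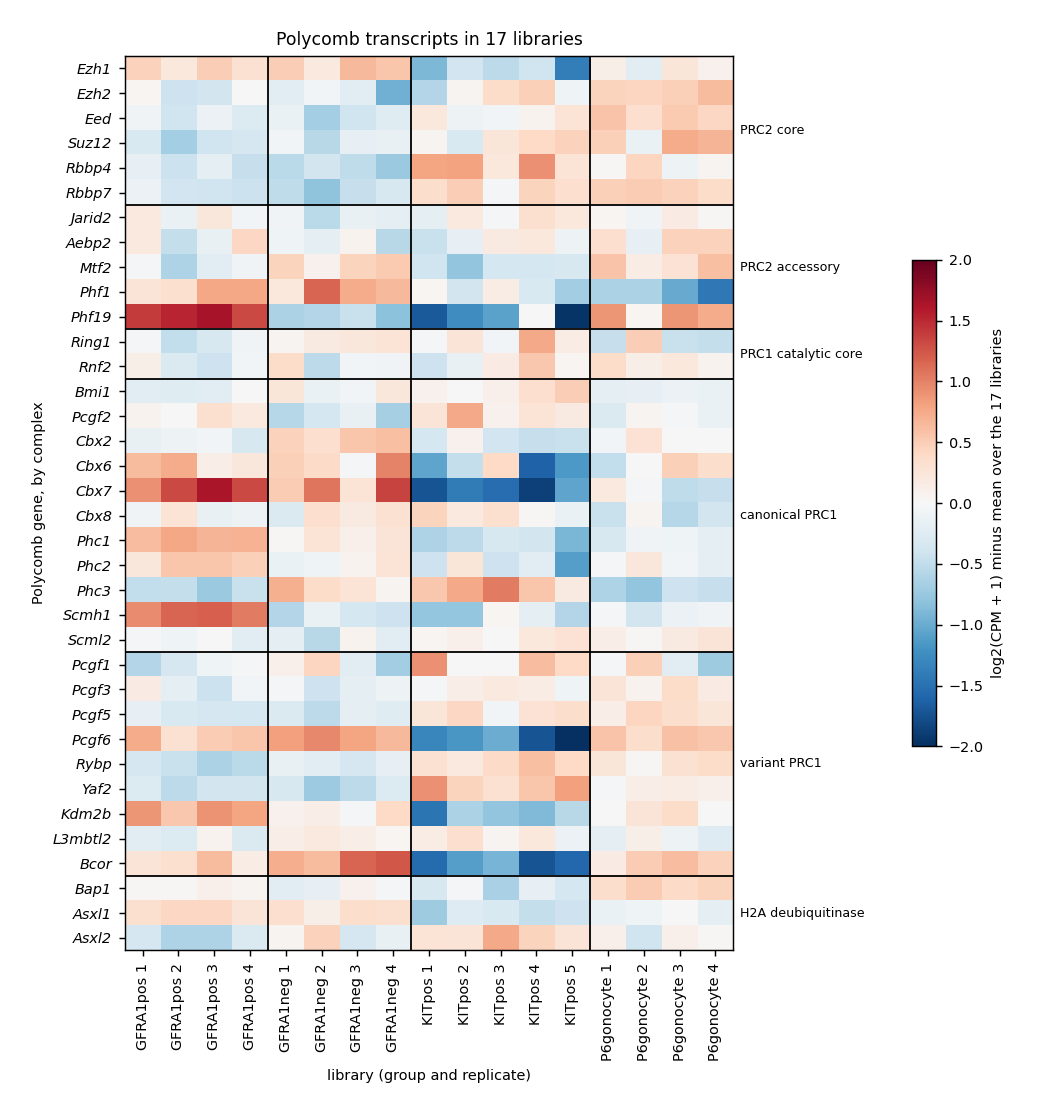
Levels of the 36 Polycomb genes (rows, by complex) in 17 libraries (columns, by group), as log2(CPM + 1) minus the gene's mean over all libraries, red above and blue below the mean. Phf19 and Scmh1 are red in the 4 GFRA1pos libraries, and Cbx7, Pcgf6 and Bcor are blue in the 5 KITpos libraries.

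Between GFRA1pos and GFRA1neg, the question is whether undifferentiated spermatogonia with and without GFRA1 differ in Polycomb transcripts. Phf19, which couples PRC2 to a methylated histone tail, was 5.36-fold higher in GFRA1pos, and Scmh1, a subunit of canonical PRC1, was 2.75-fold higher. Kdm2b, Pcgf2 and Phc1 also rose, by 1.54-, 1.5- and 1.44-fold. Phc3, Cbx2, Bcor and Mtf2 were lower, by 1.91-, 1.57-, 1.54- and 1.52-fold. In all 9 of 36 genes passed, 5 higher and 4 lower, against 14.1% of all genes tested, with 7.3% higher and 6.84% lower. The median log2 fold change of the 36 genes was 0.04, against -0.04 over all genes. None of the 6 PRC2 core genes, the 2 catalytic PRC1 genes or the 3 deubiquitinase genes passed, with log2 fold changes between -0.52 (Asxl2) and 0.23 (Rbbp4). At an unadjusted p under 0.05, 1 of these 11 genes passed (Asxl2), and DESeq2 and limma voom each called 0 of them. Over all 15451 genes DESeq2 called 2663 and limma voom 2703, and no share was computed at the unadjusted threshold. The 11 genes were put together as the complexes without a call, so nothing is read from these counts. Without GFRA1neg replicate 3 Asxl2 was called, at -0.62 (adjusted p = 0.033). For 9 of the 36 genes the ranges of both groups lay apart, against 23.3% of all genes. Without the 4 libraries highest in spermatid transcripts 7 genes passed, 5 higher and 2 lower, and Mtf2 (adjusted p up to 0.089) and Bcor were lost. Sertoli cell markers summed to 6.33 to 10.5 CPM in GFRA1pos and 16.2 to 24.03 in GFRA1neg (2 of 4 tested lower), and endothelial markers to 19.8 to 27.1 and 13.5 to 17.9 CPM (2 of 4 higher). Spermatocyte markers summed to 136 to 212 and 179 to 467 CPM (2 of 6 lower), and the part of these in the result was not tested.

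Between KITpos and GFRA1neg, which compares differentiated spermatogonia with Kit-negative cells, the canonical reader Cbx7 was 5.85-fold lower. Bcor and Pcgf6, which belong to different variant PRC1 complexes, were 5.27- and 4.90-fold lower. Ezh1, the second PRC2 methyltransferase, was 2.24-fold lower and Kdm2b 2.01-fold lower. The histone-binding proteins Rbbp4 and Rbbp7 rose by 2.24- and 1.80-fold, and Yaf2 by 2.17-fold. In all 20 of 36 genes passed, 9 higher and 11 lower, against 45.1% of all genes tested, with 22.1% higher and 23% lower. The median log2 fold change was 0.09, against 0.03 over all genes. Libraries did not overlap for 17 genes, against 33.8% of all genes. Without the 4 libraries highest in spermatid transcripts 19 passed, 9 higher and 10 lower. Of 6 Leydig cell markers 5 were called higher in KITpos, with a summed level of 21.8 to 97.5 CPM against 9.77 to 26.5 in GFRA1neg. Of the markers tested, 2 of 4 for endothelium, 1 of 4 for Sertoli cells and 1 of 2 for macrophages and leukocytes were called lower. Endothelial markers summed to 4.17 to 5.89 CPM in KITpos and 13.5 to 17.9 in GFRA1neg. The part of these cell types in the result was not tested.

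Between P6gonocyte and GFRA1pos, which compares neonatal with adult cells, 5 of the 6 PRC2 core genes were higher in the neonatal cells: Suz12 by 1.88-fold, Rbbp7 by 1.72-fold, Ezh2 by 1.62-fold, Eed by 1.61-fold and Rbbp4 by 1.34-fold. The call of Rbbp4 was lost in 11 of 17 alternatives, RLE and upper-quartile scaling and limma voom among them, and those of the other 4 genes were kept in all 17. Phf1, Cbx7 and Scmh1 were 2.96-, 2.94- and 2.36-fold lower. In all 16 of 36 genes passed, 10 higher and 6 lower, against 39.2% of all genes tested, with 17.3% higher and 21.9% lower. The median log2 fold change of the 36 genes was 0.08, that of the PRC2 core 0.69 and that of canonical PRC1 -0.35, against -0.05 over all genes. The PRC2 core median was also above 0 in KITpos, at 0.44 against GFRA1neg and 0.46 against GFRA1pos. In each of these 3 of the 6 core genes were higher and 1 lower. In P6gonocyte against KITpos the core median was 0.34, with 2 genes higher and 1 lower. Canonical PRC1 had medians of -0.06, -0.14 and 0.28 in these 3 comparisons. Libraries did not overlap for 20 genes, against 41.5%. Without the 4 libraries highest in spermatid transcripts 13 passed. Age, sort and the near absence of spermatid transcripts in P6gonocyte move together here and cannot be told apart. Sertoli cell markers summed to 18.2 to 46.2 CPM in P6gonocyte and 6.33 to 10.5 in GFRA1pos, with 3 of 4 tested called higher. Of the other markers tested, 1 of 4 for peritubular myoid cells and 1 of 1 for red blood cells were higher. For endothelium 2 of 4 and for macrophages and leukocytes 1 of 2 were lower. Leydig cell markers had 1 of 6 higher and 1 lower, and spermatocyte markers 2 of 6 higher and 3 lower. The part of these cell types was not tested.

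The other 3 pairs of groups share libraries with these. KITpos differed from GFRA1pos in 24 genes, 11 higher and 13 lower, against 48.6% of all genes, with 24.9% higher and 23.7% lower. The groups lay apart for 20 genes, against 37.2%. P6gonocyte differed from GFRA1neg in 19 genes, 12 higher and 7 lower, against 43.6%, with 18.8% higher and 24.9% lower, and the groups lay apart for 19, against 44.8%. P6gonocyte differed from KITpos in 19 genes, 12 higher and 7 lower, against 49.1%, with 21.8% higher and 27.3% lower, and the groups lay apart for 15, against 35.9%. Calls that held in every alternative tried numbered 5 of 9 for GFRA1pos against GFRA1neg, 16 of 20 for KITpos against GFRA1neg and 13 of 16 for P6gonocyte against GFRA1pos.

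**Figure D2:**
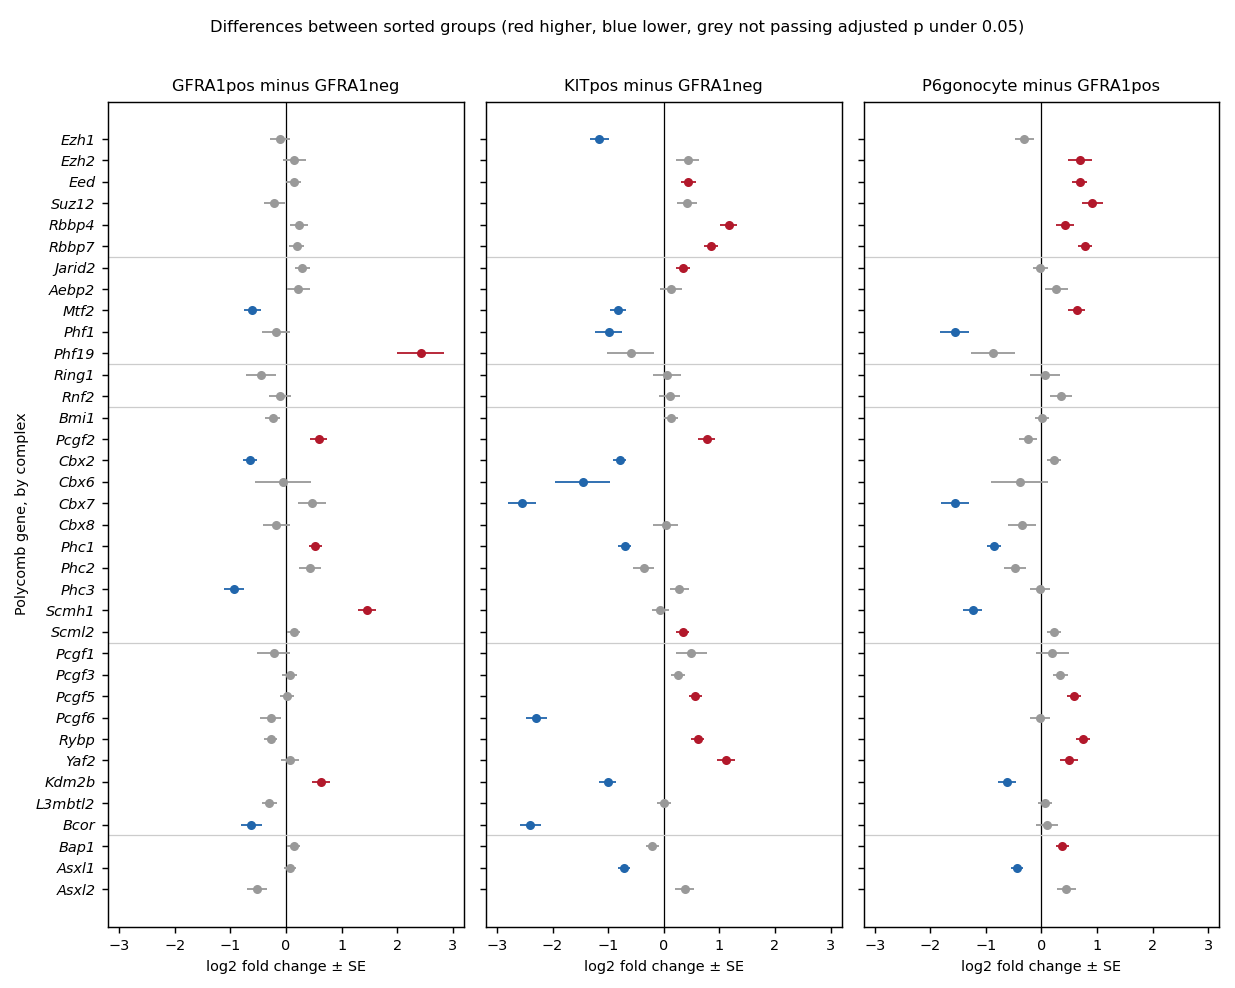
Log2 fold change ± SE of each Polycomb gene, with a panel each for GFRA1pos against GFRA1neg, for KITpos against GFRA1neg and for P6gonocyte against GFRA1pos, red and blue where the adjusted p was under 0.05. Phf19 at 2.42 lies farthest right in the first panel, Cbx7 at -2.55 farthest left in the second, and the PRC2 core genes other than Ezh1 are red in the third.

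In the PRC2 core the methyltransferases Ezh1 and Ezh2 moved differently. Ezh1 was 158, 128, 176 and 165 CPM in GFRA1neg and 59.5, 85.7, 77.4, 84.4 and 42.4 CPM in KITpos, with no overlap. It was 155, 130.2, 157 and 138 CPM in GFRA1pos and 121, 95.8, 132 and 119 CPM in P6gonocyte. The log2 fold change of Ezh1 in KITpos against GFRA1neg was -1.16 ± 0.17 (adjusted p = 1.6e-05), and against GFRA1pos it was -1.05 ± 0.17 (adjusted p = 4.5e-05). Ezh2, the methyltransferase of dividing cells, was 38.9, 28.3, 29.1 and 37.6 CPM in GFRA1pos, 32.4, 36.6, 32.5 and 19.1 in GFRA1neg, 25.1, 39.5, 49.1, 53.4 and 35.7 in KITpos and 52.3, 51.5, 53.4 and 59.4 in P6gonocyte. Every P6gonocyte library lay above every GFRA1pos and GFRA1neg library, while the KITpos libraries spanned both. Ezh2 rose in P6gonocyte against GFRA1pos by 0.69 ± 0.21 (adjusted p = 0.015). In KITpos against GFRA1neg the difference was 0.43 ± 0.20 (adjusted p = 0.098), and it passed without KITpos replicate 1, at 0.56 (adjusted p = 0.021), and without the 4 libraries highest in spermatid transcripts, at 0.68 (adjusted p = 0.013). The adjusted p reached 0.32 over the other alternatives.

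Eed, which reads the PRC2 mark and stimulates the enzyme, was 63.1, 49.8, 61.1 and 54.6 CPM in GFRA1pos and 98.9, 83.8, 95.8 and 88.8 in P6gonocyte. It was 60.1, 41.02, 50.03 and 55.97 CPM in GFRA1neg and 76.9, 61.3, 63.8, 69.8 and 80.2 in KITpos. The neonatal libraries were all above every adult library. In the GENCODE annotation 12.6% of the Eed exon bases overlap E230029C05Rik on the other strand. Its log2 fold change was 0.68 ± 0.13 (adjusted p = 0.00073) in P6gonocyte against GFRA1pos and 0.44 ± 0.13 (adjusted p = 0.0087) in KITpos against GFRA1neg, where the call was lost in the fit of only those groups and without the 4 libraries highest in spermatid transcripts (adjusted p 0.0048 to 0.079 over the alternatives). Suz12, the scaffold of the complex, was 82.8, 63.9, 77.4 and 81.2 CPM in GFRA1pos and 98.9, 69.6, 91.9 and 92.6 in GFRA1neg. In KITpos it was 106, 83.3, 122, 136 and 142 and in P6gonocyte 143, 93.9, 173 and 165, where replicate 2 was lowest. Suz12 rose in P6gonocyte against GFRA1pos by 0.91 ± 0.19 (adjusted p = 0.00097), and in KITpos against GFRA1pos by 0.62 ± 0.18 (adjusted p = 0.0070), a call lost without the 4 libraries highest in spermatid transcripts. In KITpos against GFRA1neg it did not pass (0.42 ± 0.18, adjusted p = 0.064) except with no count filter, with the replicate number as a block and without KITpos replicate 2 (adjusted p 0.018 to 0.18 over the alternatives).

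Rbbp4 and Rbbp7 are histone chaperones that PRC2 shares with other chromatin complexes. Rbbp4 was 104, 118, 107 and 91.1 CPM in GFRA1neg and 263, 266, 177, 289 and 184 CPM in KITpos, with no overlap. It was 135, 113, 134 and 111 CPM in GFRA1pos and 155, 205, 141 and 158 in P6gonocyte. The log2 fold change in KITpos against GFRA1neg was 1.17 ± 0.16 (adjusted p = 6.9e-06). In P6gonocyte against GFRA1pos it was 0.42 ± 0.16 (adjusted p = 0.047) and was lost in 11 of 17 alternatives, among them without GFRA1pos replicates 2, 3 or 4 or P6gonocyte replicates 1, 2 or 4, with adjusted p up to 0.23. In the GENCODE annotation 18.1% of the Rbbp4 exon bases overlap Gm26722 and 11.8% overlap Sync, both on the other strand, and how the counting used strand is not given in the sources used here. Rbbp7 was 156, 126, 160.0 and 177 CPM in GFRA1neg, 203, 170.1, 168 and 165 in GFRA1pos, 282, 311, 215, 302 and 281 in KITpos and 309.5, 315, 306 and 286 in P6gonocyte. On the other strand Txlng overlaps 7.42% of its exon bases. Rbbp7 rose by 0.85 ± 0.12 (adjusted p = 1.7e-05) in KITpos against GFRA1neg and 0.78 ± 0.13 (adjusted p = 0.00018) in P6gonocyte against GFRA1pos.

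The 3 Polycomb-like proteins Mtf2, Phf1 and Phf19 take the same place on PRC2 and direct it to DNA, and each had its own pattern. Phf19 was 14.5, 16.01, 17.5 and 13.8 CPM in GFRA1pos and 2.82, 2.96, 3.35 and 2.37 CPM in GFRA1neg. It was 0.84, 1.51, 1.82, 4.95 and 0.52 CPM in KITpos and 9.86, 5.05, 9.94 and 8.93 in P6gonocyte. All GFRA1pos libraries were above every library of the other groups, and P6gonocyte came next. For Phf19 the log2 fold change was 2.42 ± 0.42 (adjusted p = 0.00062) in GFRA1pos against GFRA1neg, -3.02 ± 0.41 (adjusted p = 7.7e-06) in KITpos against GFRA1pos and 1.55 ± 0.42 (adjusted p = 0.0060) in P6gonocyte against GFRA1neg. P6gonocyte against GFRA1pos gave -0.87 ± 0.40 (adjusted p = 0.091), and passed by DESeq2, limma voom and in the fit of only those groups. KITpos against GFRA1neg gave -0.59 ± 0.42 (adjusted p = 0.27); without KITpos replicate 4, the highest of its group, it was -1.25 and passed, with adjusted p from 0.0058 to 0.55 over the alternatives.

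Mtf2 was 219.6, 169.9, 219 and 230.5 CPM in GFRA1neg and 238, 179, 197 and 243 in P6gonocyte. In GFRA1pos it was 158, 104, 137 and 152, and in KITpos 121, 92.5, 126, 126 and 129. GFRA1neg lay above GFRA1pos and KITpos in every library. The log2 fold change of Mtf2 was -0.60 ± 0.15 (adjusted p = 0.010) in GFRA1pos against GFRA1neg and -0.82 ± 0.14 (adjusted p = 0.00011) in KITpos against GFRA1neg. P6gonocyte rose against GFRA1pos by 0.63 ± 0.15 (adjusted p = 0.0030). In the annotation 9.73% of the Mtf2 exon bases overlap Tmed5 on the other strand. Phf1 was 17.6, 18.5, 25.8 and 25.7 CPM in GFRA1pos, 17.03, 33.9, 25.1 and 23.4 in GFRA1neg, 14.98, 11.02, 16.2, 11.6 and 8.66 in KITpos and 9.03, 9.02, 6.73 and 4.81 in P6gonocyte. The neonatal libraries overlapped KITpos and lay below both other groups. Phf1 changed by -1.56 ± 0.26 (adjusted p = 0.00021) in P6gonocyte against GFRA1pos and -0.99 ± 0.24 (adjusted p = 0.0023) in KITpos against GFRA1neg. Jarid2 and Aebp2, which form the alternative accessory module, had group means of 210.0 ± 25.9, 171 ± 23.1, 217 ± 30.5 and 206 ± 13.6 and of 34.6 ± 9.40, 29.7 ± 5.36, 32.6 ± 6.16 and 41.6 ± 7.88 CPM. Jarid2 passed in KITpos against GFRA1neg at 0.34 ± 0.13 (adjusted p = 0.036), a call lost in 9 of 18 alternatives, among them without GFRA1neg replicates 2, 3 or 4 or KITpos replicates 2, 4 or 5 (adjusted p 0.013 to 0.14).

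The catalytic PRC1 genes did not pass in any of the 6 comparisons with all libraries. Ring1 was 8.61, 5.95, 6.84 and 8.36 CPM in GFRA1pos, 9.22, 10.1, 10.4 and 10.9 in GFRA1neg, 8.54, 10.7, 8.43, 15.5 and 9.87 in KITpos and 6.11, 12.7, 6.21 and 6.05 in P6gonocyte. Without P6gonocyte replicate 2, far above the others of its group, Ring1 passed in P6gonocyte against GFRA1neg at -0.72 (adjusted p = 0.029) and against KITpos at -0.78 (adjusted p = 0.014). The GFRA1pos libraries all lay below the GFRA1neg libraries, but the log2 fold change of -0.44 ± 0.27 (adjusted p = 0.32) did not pass. Rnf2 was 62.1, 46.4, 42.6 and 54.9 CPM in GFRA1pos, 73.8, 39.6, 55.1 and 54.4 in GFRA1neg, 42.6, 51.7, 63.9, 83.7 and 58.9 in KITpos and 73.7, 61.9, 66.2 and 59.9 in P6gonocyte, and all groups overlapped. The 95% interval of the Rnf2 log2 fold change was -0.50 to 0.27 in GFRA1pos against GFRA1neg, -0.26 to 0.48 in KITpos against GFRA1neg and -0.04 to 0.73 in P6gonocyte against GFRA1pos. For Ring1, counted at under 16 CPM in every library, the intervals were -0.97 to 0.08, -0.44 to 0.56 and -0.47 to 0.60. Changes of a size inside these intervals could not be told from 0.

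In canonical PRC1 the Cbx readers diverged. Cbx7 was 34.2, 45.7, 56.8 and 45.5 CPM in GFRA1pos and 25.6, 37.9, 21.6 and 46.7 in GFRA1neg. It was 4.62, 6.03, 5.45, 4.09 and 7.97 CPM in KITpos and 20.3, 17.1, 12.1 and 12.5 in P6gonocyte. The KITpos libraries lay below every library of the other groups and P6gonocyte lay between KITpos and the adult Kit-negative groups. For Cbx7 the log2 fold change was -2.55 ± 0.25 (adjusted p = 1.8e-07) in KITpos against GFRA1neg and -1.56 ± 0.26 (adjusted p = 0.00018) in P6gonocyte against GFRA1pos, and it did not pass in GFRA1pos against GFRA1neg (0.47 ± 0.25, adjusted p = 0.24). Cbx2, a reader known for its role in testis formation, was 187, 171, 198 and 205 CPM in GFRA1neg, above the 122, 126, 129.6 and 107 of GFRA1pos and the 106, 143, 103, 98.1 and 98.6 of KITpos, and 131, 165, 135 and 136 in P6gonocyte. Its log2 fold change was -0.65 ± 0.13 (adjusted p = 0.0019) in GFRA1pos against GFRA1neg and -0.79 ± 0.12 (adjusted p = 2.9e-05) in KITpos against GFRA1neg. Cbx6 and Cbx8 were low, with means of 4.65 ± 1.16, 4.83 ± 1.75, 1.71 ± 1.62 and 3.52 ± 1.26 and 7.69 ± 1.26, 8.69 ± 1.78, 8.90 ± 1.58 and 6.03 ± 1.40 CPM. Cbx6 passed in KITpos against GFRA1neg at -1.46 ± 0.50 (adjusted p = 0.022), a call lost without GFRA1neg replicate 4, without KITpos replicate 1 and in the fits of only those groups, with the replicate block and without the 4 libraries highest in spermatid transcripts (adjusted p 0.00089 to 0.082). Of the Cbx6 exon bases 9.7% overlap Npcd on the same strand.

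Among the polyhomeotic proteins, which let PRC1 assemble into larger bodies, Phc1 was higher and Phc3 lower in GFRA1pos than in GFRA1neg. Phc1 was 335, 373, 351 and 356 CPM in GFRA1pos, 221, 264, 235 and 261 in GFRA1neg, 141, 151, 175, 169.9 and 116 in KITpos and 174, 208, 205 and 192 in P6gonocyte. GFRA1pos was above every other library, and KITpos below all of GFRA1neg. Phc1 had a log2 fold change that was 0.53 ± 0.12 (adjusted p = 0.0064) in GFRA1pos against GFRA1neg, -0.70 ± 0.12 (adjusted p = 6.5e-05) in KITpos against GFRA1neg and -0.86 ± 0.12 (adjusted p = 6.3e-05) in P6gonocyte against GFRA1pos. Phc3 was 23.9, 24.01, 19.7 and 24.5 CPM in GFRA1pos and 21.7, 19.1, 25.2 and 24.2 in P6gonocyte. It was 55.8, 43.8, 41.1 and 35.04 CPM in GFRA1neg and 49.6, 58.1, 70.8, 49.97 and 38.6 in KITpos, all above both former groups. Phc3 changed by -0.93 ± 0.18 (adjusted p = 0.0013) in GFRA1pos against GFRA1neg and 1.21 ± 0.17 (adjusted p = 1.1e-05) in KITpos against GFRA1pos. Phc2, with means of 80.7 ± 8.37, 60.1 ± 7.88, 46.7 ± 15.4 and 58.3 ± 7.07 CPM, passed in KITpos against GFRA1pos (-0.79 ± 0.19, adjusted p = 0.0018). Against GFRA1pos, P6gonocyte gave -0.47 ± 0.20 (adjusted p = 0.067), which passed with RLE or upper-quartile scaling, DESeq2, the fit of only those groups and the replicate block (adjusted p from 0.0081). Phc2 also passed in the fit of only GFRA1pos and GFRA1neg, at 0.43 (adjusted p = 0.032). Without KITpos replicate 2 it passed in KITpos against GFRA1neg at -0.55 (adjusted p = 0.011) and in P6gonocyte against KITpos at 0.51 (adjusted p = 0.018).

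Scmh1, which binds polyhomeotic proteins, was 230.3, 269, 273 and 244 CPM in GFRA1pos and 78.9, 109, 92.8 and 89.3 in GFRA1neg. It was 68.7, 68.8, 122, 105 and 78.5 CPM in KITpos and 116, 92.2, 109 and 114 in P6gonocyte. GFRA1pos was above every other library and the other 3 groups overlapped. For Scmh1 the log2 fold change was 1.46 ± 0.17 (adjusted p = 9.9e-06) in GFRA1pos against GFRA1neg, -1.52 ± 0.16 (adjusted p = 2.7e-07) in KITpos against GFRA1pos and -1.24 ± 0.17 (adjusted p = 3.8e-05) in P6gonocyte against GFRA1pos. Its relative Scml2, a germline Polycomb protein, had means of 351 ± 22.1, 319 ± 56.5, 404 ± 34.4 and 410.0 ± 28.5 CPM and passed in KITpos against GFRA1neg at 0.34 ± 0.12 (adjusted p = 0.024). That call was lost in 6 of 18 alternatives, including without GFRA1neg replicates 1, 2 or 4 or KITpos replicate 5 (adjusted p 0.0061 to 0.14). Of the ring-finger partners, Pcgf2 was 45.4, 43.04, 54.5 and 49.7 CPM in GFRA1pos, 28.9, 33.7, 38.9 and 26.9 in GFRA1neg, 51.9, 74.2, 46.2, 52.7 and 49.4 in KITpos and 35.3, 45.1, 42.6 and 39.4 in P6gonocyte. GFRA1neg lay below GFRA1pos and KITpos and overlapped P6gonocyte. It rose in GFRA1pos by 0.59 ± 0.16 (adjusted p = 0.017), a call lost without GFRA1pos replicate 3 or GFRA1neg replicates 1 or 4 (adjusted p 0.0024 to 0.065), and in KITpos by 0.77 ± 0.15 (adjusted p = 0.00037). Bmi1, which takes the same place, had means of 63.6 ± 5.47, 75.2 ± 9.97, 82.7 ± 12.6 and 64.1 ± 1.27 CPM and differed in KITpos against GFRA1pos (0.38 ± 0.12, adjusted p = 0.017) and in P6gonocyte against KITpos (-0.37 ± 0.12, adjusted p = 0.020). The latter was lost without KITpos replicate 5, without P6gonocyte replicate 1, in the fit of only those groups and without the 4 libraries highest in spermatid transcripts (adjusted p up to 0.062).

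**Figure D3:**
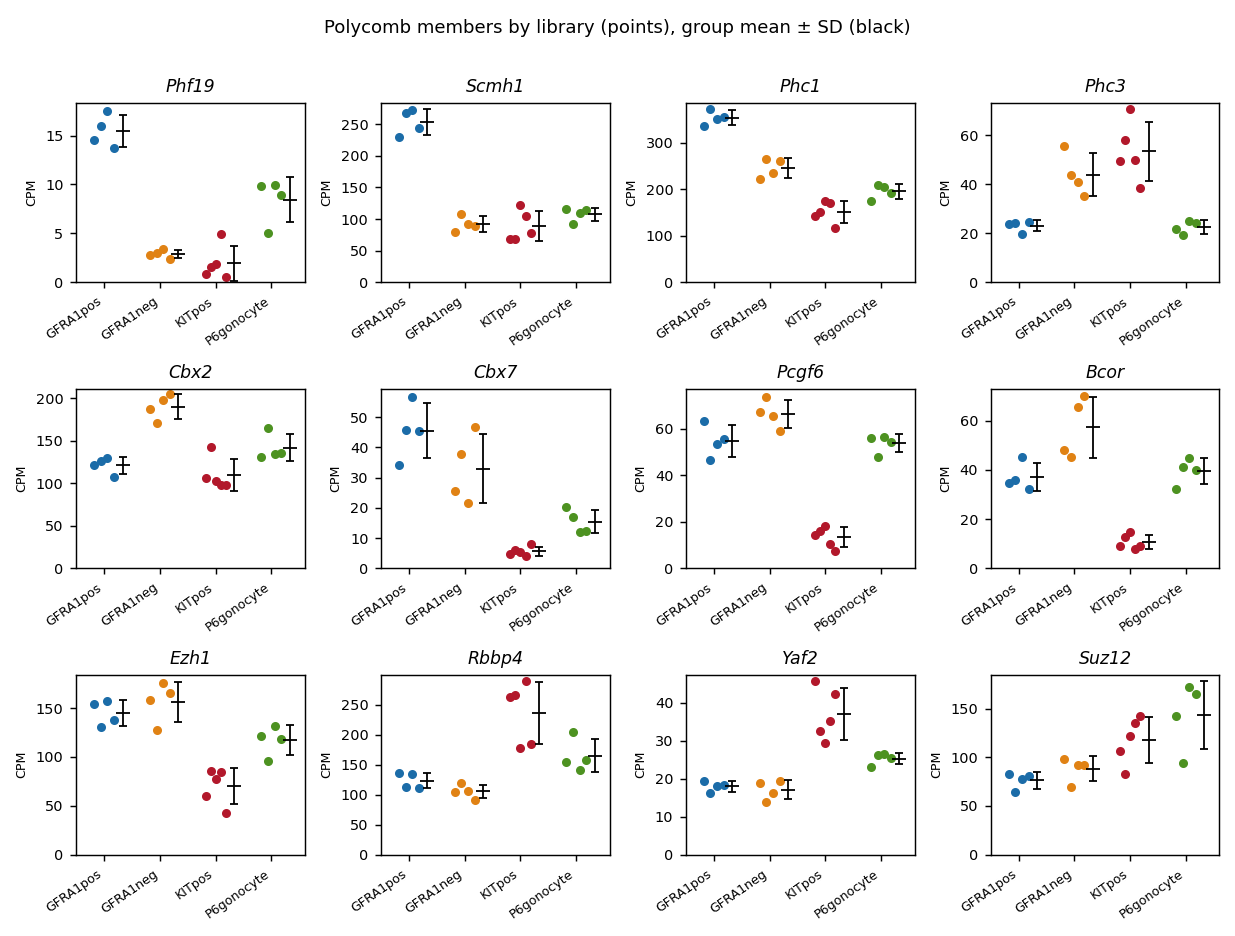
CPM of 12 Polycomb genes in each library (points) with the group mean ± SD (black), one panel per gene, axes from 0. Phf19, Scmh1 and Phc1 are highest in GFRA1pos, Cbx7, Pcgf6 and Bcor lowest in KITpos, and Yaf2 and, on average, Rbbp4 highest in KITpos.

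In variant PRC1, Bcor and Kdm2b of the Pcgf1 complex and Pcgf6 of another complex fell in KITpos against GFRA1neg. Bcor, the co-repressor that holds Pcgf1 and Kdm2b together, was 48.2, 45.3, 65.5 and 69.8 CPM in GFRA1neg and 9.24, 12.9, 14.7, 8.02 and 9.01 in KITpos. It was 34.6, 36.01, 45.4 and 32.2 CPM in GFRA1pos and 32.4, 41.2, 44.8 and 39.9 in P6gonocyte. The KITpos libraries lay below all others, and GFRA1pos and GFRA1neg overlapped at their edges. For Bcor the log2 fold change was -2.40 ± 0.19 (adjusted p = 1.3e-08) in KITpos against GFRA1neg and 1.87 ± 0.19 (adjusted p = 5.6e-07) in P6gonocyte against KITpos. In GFRA1pos against GFRA1neg it was -0.63 ± 0.19 (adjusted p = 0.035), lost without GFRA1pos replicates 1, 2 or 4, GFRA1neg replicates 3 or 4, the count filter or the 4 libraries highest in spermatid transcripts (adjusted p 0.014 to 0.18).

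Kdm2b, which binds unmethylated CpG, was 174, 137, 176 and 164 CPM in GFRA1pos, 100.4, 104, 93.01 and 125 in GFRA1neg, 33.6, 60.5, 54.2, 50.7 and 63.6 in KITpos and 93.7, 113, 122 and 93.7 in P6gonocyte. GFRA1pos was highest and KITpos lowest, without overlap. Kdm2b changed by 0.63 ± 0.16 (adjusted p = 0.014) in GFRA1pos against GFRA1neg, lost without GFRA1neg replicate 3 (adjusted p 0.0012 to 0.053), -1.01 ± 0.16 (adjusted p = 3.4e-05) in KITpos against GFRA1neg and -0.62 ± 0.16 (adjusted p = 0.0058) in P6gonocyte against GFRA1pos. In the annotation 10.7% of the Kdm2b exon bases overlap Rnf34 on the other strand. Pcgf1 itself had means of 11.5 ± 2.13, 13.3 ± 4.60, 18.9 ± 5.57 and 13.1 ± 4.86 CPM, with 0.50 ± 0.28 (adjusted p = 0.16) in KITpos against GFRA1neg, and passed in KITpos against GFRA1pos (0.72 ± 0.29, adjusted p = 0.044). That call was kept in 6 of 18 alternatives and lost without GFRA1pos replicates 1, 2 or 3 or KITpos replicates 1, 4 or 5 (adjusted p up to 0.17).

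Pcgf6, of the complex known for silencing of germline genes in embryonic stem cells, was 67.2, 73.97, 65.5 and 58.9 CPM in GFRA1neg and 14.6, 16.2, 18.3, 10.6 and 7.45 in KITpos. It was 63.4, 46.7, 53.5 and 55.5 CPM in GFRA1pos and 55.96, 48.1, 56.6 and 54.6 in P6gonocyte. Each KITpos library was below every other library. For Pcgf6 the log2 fold change was -2.29 ± 0.19 (adjusted p = 1.6e-08) in KITpos against GFRA1neg, -2.02 ± 0.19 (adjusted p = 6.2e-08) against GFRA1pos and 1.99 ± 0.19 (adjusted p = 1.9e-07) in P6gonocyte against KITpos, and it did not pass in the comparisons that left KITpos out. L3mbtl2, another subunit of that complex, had means of 55.8 ± 7.07, 68.5 ± 3.05, 68.9 ± 8.33 and 58.4 ± 7.13 CPM and a log2 fold change of 0.01 ± 0.12 (adjusted p = 0.97) in KITpos against GFRA1neg, and passed in KITpos against GFRA1pos at 0.31 ± 0.12 (adjusted p = 0.046). This call too was kept in 6 of 18 alternatives and lost without GFRA1pos replicates 1, 2 or 4 or KITpos replicates 1, 2 or 4 (adjusted p up to 0.44), and without the 4 libraries highest in spermatid transcripts it was 0.16.

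Rybp and Yaf2, which stimulate the ubiquitin ligase of variant PRC1, rose in KITpos against GFRA1neg and in P6gonocyte against GFRA1pos. Yaf2 was 18.8, 13.9, 16.2 and 19.3 CPM in GFRA1neg and 45.8, 32.5, 29.4, 35.1 and 42.4 in KITpos. It was 19.3, 16.1, 18.1 and 18.2 CPM in GFRA1pos and 23.1, 26.2, 26.5 and 25.6 in P6gonocyte. KITpos was highest, with a log2 fold change of 1.12 ± 0.16 (adjusted p = 1.1e-05) against GFRA1neg, and P6gonocyte was above GFRA1pos by 0.50 ± 0.16 (adjusted p = 0.021), lost without GFRA1pos replicate 2, P6gonocyte replicate 3 or the 4 libraries highest in spermatid transcripts (adjusted p 0.0091 to 0.087). Rybp was 45.7, 42.4, 36.9 and 39.4 CPM in GFRA1pos, 52.02, 49.5, 45.6 and 51.9 in GFRA1neg, 72.2, 66.8, 75.7, 88.7 and 76.7 in KITpos and 69.2, 59.3, 71.7 and 75.5 in P6gonocyte. Its log2 fold change was 0.61 ± 0.12 (adjusted p = 0.00024) in KITpos against GFRA1neg and 0.74 ± 0.12 (adjusted p = 0.00016) in P6gonocyte against GFRA1pos, and RefSeq lists a pseudogene of Rybp, with which its reads could be split. Pcgf5, which forms a further variant complex, was 65.7, 56.1, 71.1 and 67.8 CPM in GFRA1neg, 72.1, 65.1, 63.3 and 62.7 in GFRA1pos, 95.1, 108, 77.2, 98.8 and 104 in KITpos and 88.6, 109, 103 and 95.2 in P6gonocyte. It rose by 0.57 ± 0.12 (adjusted p = 0.00056) in KITpos against GFRA1neg and by 0.59 ± 0.12 (adjusted p = 0.0011) in P6gonocyte against GFRA1pos. Pcgf3, which forms a like complex, had means of 61.2 ± 10.9, 58.5 ± 6.41, 69.9 ± 5.65 and 77.3 ± 6.78 CPM, and passed in P6gonocyte against GFRA1neg (0.40 ± 0.13, adjusted p = 0.021), a call lost without GFRA1neg replicate 2 or P6gonocyte replicate 3 (adjusted p up to 0.075). Against GFRA1pos it was 0.34 ± 0.13 (adjusted p = 0.053) and passed under limma voom, with the replicate block and without GFRA1pos replicate 1 or P6gonocyte replicate 2 (adjusted p from 0.018).

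Among the genes for removal of H2A ubiquitin, the enzyme Bap1 was 134, 133, 141 and 136 CPM in GFRA1pos, 112, 117, 139 and 128 in GFRA1neg, 105, 128, 83.8, 117 and 103 in KITpos and 167, 188, 172 and 179 in P6gonocyte, with the neonatal libraries above all others. It rose in P6gonocyte against GFRA1pos by 0.38 ± 0.12 (adjusted p = 0.018), a call lost without the 4 libraries highest in spermatid transcripts (adjusted p 0.0051 to 0.073), and against KITpos by 0.72 ± 0.11 (adjusted p = 6.4e-05). Asxl1, a partner that Bap1 needs, was 247, 263, 263 and 237 CPM in GFRA1pos, 250.1, 214, 253 and 248 in GFRA1neg, 121, 166, 159, 141 and 148 in KITpos and 180.0, 186, 199 and 175 in P6gonocyte. The log2 fold change of Asxl1 was -0.72 ± 0.10 (adjusted p = 1.6e-05) in KITpos against GFRA1neg and -0.45 ± 0.11 (adjusted p = 0.0037) in P6gonocyte against GFRA1pos. Asxl2, the alternative partner, had means of 33.8 ± 4.23, 48.3 ± 12.2, 62.9 ± 10.3 and 46.2 ± 7.19 CPM and was higher in KITpos than in GFRA1pos by 0.89 ± 0.17 (adjusted p = 0.00025).

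Subunits that can take the same place in a complex were then compared as a ratio of their counts within each library, which needs no scaling between libraries. Of 8 pairs over 3 comparisons, none of the 24 exact two-sided permutation tests passed after Benjamini-Hochberg adjustment, where the smallest adjusted p was 0.0571. The smallest raw p that 4 against 4 libraries allow is 0.0286, and 5 against 4 allow 0.0159; tests under 0.05 before adjustment numbered 12 of 24. No library of one group reached the other for 3 of the 8 pairs in GFRA1pos against GFRA1neg, 4 in KITpos against GFRA1neg and 5 in P6gonocyte against GFRA1pos. Over all single genes tested the groups lay apart for 23.3%, 33.8% and 41.5%. No share was computed over other pairs of genes, so nothing is read from these counts or from the 12 tests. The log2 ratio of Ezh1 to Ezh2 averaged 2.12 ± 0.25, 2.41 ± 0.54, 0.78 ± 0.40 and 1.10 ± 0.19 (mean ± SD) in GFRA1pos, GFRA1neg, KITpos and P6gonocyte, so that the adult Kit-negative groups lay above both others in every library. Cbx7 to Cbx2 averaged -1.43 ± 0.29, -2.59 ± 0.53, -4.29 ± 0.40 and -3.22 ± 0.37 in the same order, and Asxl2 to Asxl1 averaged -2.90 ± 0.25, -2.35 ± 0.46, -1.23 ± 0.24 and -2.01 ± 0.26. The Pcgf2 to Bmi1 ratio separated GFRA1pos (-0.40 ± 0.17) from GFRA1neg (-1.23 ± 0.41). Yaf2 to Rybp differed by 0.50 and Rbbp7 to Rbbp4 by -0.30 on the log2 scale in KITpos minus GFRA1neg, Phc2 to Phc1 by 0.30 and Ring1 to Rnf2 by -0.08.

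**Figure D4:**
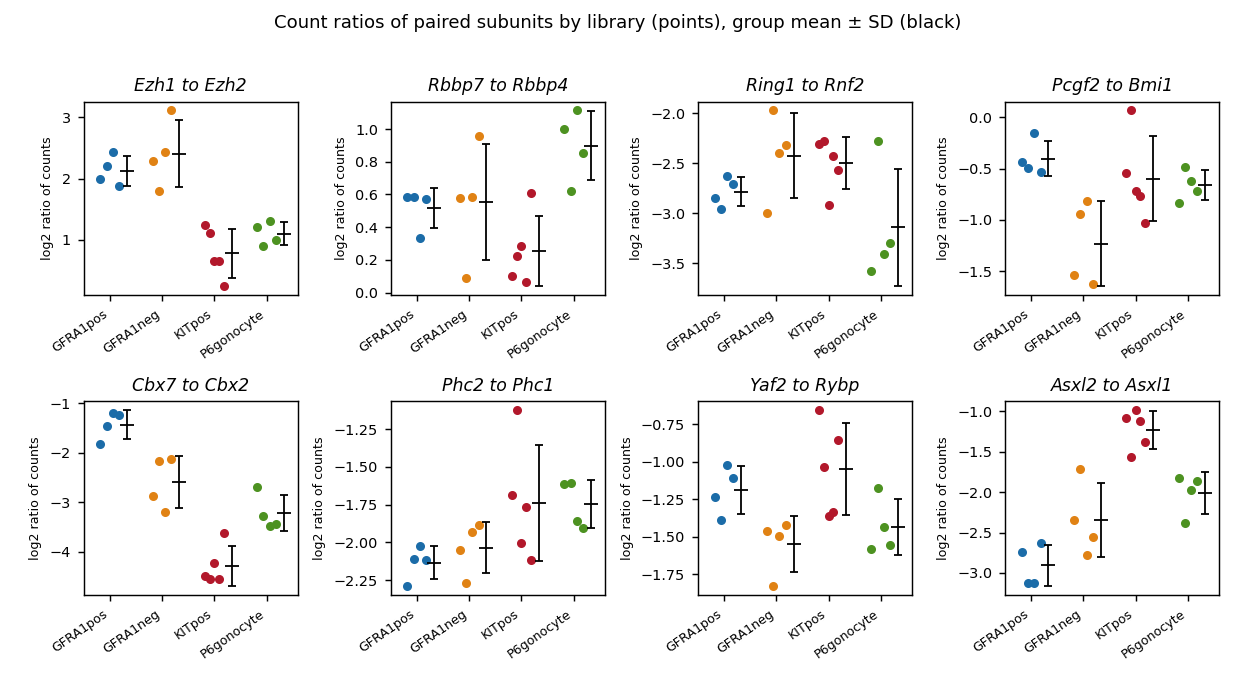
Log2 ratio of the counts of 8 pairs of subunits in each library (points) with the group mean ± SD (black). Cbx7 to Cbx2 is highest in GFRA1pos and lowest in KITpos, Ezh1 to Ezh2 is lower in KITpos and P6gonocyte than in both adult Kit-negative groups, and Ring1 to Rnf2 overlaps between groups.

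Levels of different genes were compared as mean CPM per kilobase of merged exon, with lengths from GENCODE on GRCm38, which may differ from the annotation the counts were made with. On this scale the group mean of Ezh1 was above that of Ezh2 in GFRA1pos (23.8 against 11.9) and GFRA1neg (25.8 against 10.8). It was below it in KITpos (11.5 against 14.5) and level with it in P6gonocyte (19.2 against 19.3). The order in KITpos rests on merged exon lengths of 6081 bases for Ezh1 and 2802 for Ezh2. The log2 ratio of their counts ran from 0.25 to 1.25 over the KITpos libraries, so Ezh1 had more counts in each. Rbbp7 had the highest level of the PRC2 core genes in all 4 groups, from 65.9 in GFRA1neg to 129.6 in P6gonocyte. Of the Cbx genes listed, Cbx2 was highest in every group, at 31.8, 49.97, 28.8 and 37.3, and Cbx6 lowest at under 1. Phc1 ran from 34.96 to 82.03, against 1.93 to 4.57 for Phc3. Rnf2 was 15.4 to 19.6 and Ring1 3.66 to 5.21.

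Of 40 partners, recruiters and opposing enzymes listed beside the 36 genes, 39 had a row and 38 were tested. In GFRA1pos against GFRA1neg 4 passed, all lower. Ogt, which modifies the Bap1 partner Hcfc1, had a log2 fold change of -0.72 ± 0.14 (adjusted p = 0.0013). For Bcorl1, a relative of Bcor, it was -0.82 ± 0.22 (adjusted p = 0.016), for Auts2 of the Pcgf5 complex -0.56 ± 0.17 (adjusted p = 0.034) and for Mga, the DNA-binding scaffold of the Pcgf6 complex, -0.63 ± 0.21 (adjusted p = 0.048). This count fell to 2 without GFRA1pos replicates 1, 2 or 4 or GFRA1neg replicates 3 or 4, was 8 in the fit of only those groups, and fell to 1, Ogt, without the 4 libraries highest in spermatid transcripts. In some alternatives not all were lower. With RLE or upper-quartile scaling, no count filter, DESeq2, limma voom or without GFRA1pos replicate 4, 1 partner was called higher. In the fit of only those groups 2 were called higher. Over the alternatives the adjusted p reached 0.11 for Bcorl1, 0.12 for Auts2 and 0.16 for Mga, and was at most 0.039 for Ogt. In KITpos against GFRA1neg 27 of 38 passed, 10 higher and 17 lower, against 45.1% of all genes, with 22.1% higher and 23% lower. The partners named here for this comparison were all lower, and none of the 10 higher ones is named. L3mbtl2 of the Pcgf6 complex did not pass in it, and whether that complex changed as a whole was not tested. Max, the DNA-binding partner of Mga in the Pcgf6 complex, was 274, 259, 353 and 286 CPM in GFRA1neg and 95.5, 92.9, 89.5, 110.0 and 105 in KITpos, a log2 fold change of -1.57 ± 0.13 (adjusted p = 2.1e-08). E2f6, named after its value was seen because it binds DNA in the same complex, was 100.00, 75.8, 93.9 and 109 CPM in GFRA1neg and 47.9, 55.3, 39.7, 33.1 and 35.9 in KITpos, a log2 fold change of -1.15 ± 0.15 (adjusted p = 4.8e-06), and Mga changed by -0.52 ± 0.19 (adjusted p = 0.036), lost in 8 of 18 alternatives, among them without GFRA1neg replicates 1, 3 or 4 or KITpos replicates 1, 2 or 3 (adjusted p up to 0.091). Foxk1, which recruits Bap1, had a log2 fold change of -2.11 ± 0.23 (adjusted p = 7.0e-07) and Ogt one of -1.22 ± 0.13 (adjusted p = 4.7e-07).

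In P6gonocyte against GFRA1pos 17 partners passed, 10 higher and 7 lower. Max was 264, 337, 351 and 271 CPM in GFRA1pos and 114, 159, 119.9 and 135 in P6gonocyte, with a log2 fold change of -1.21 ± 0.14 (adjusted p = 9.3e-06). The deacetylase gene Hdac2 rose by 1.30 ± 0.15 (adjusted p = 9.7e-06) and Dnajc2, which displaces PRC1 from ubiquitinated H2A, by 1.42 ± 0.20 (adjusted p = 6.4e-05). Mbd6, a partner of Bap1 complexes, had a log2 fold change of -1.40 ± 0.20 (adjusted p = 5.7e-05). The median log2 fold change of the 38 partners was -0.0035, -0.29 and 0.23 in the 3 comparisons, and the share of partners called was 10.5%, 71.1% and 44.7%, against 14.1%, 45.1% and 39.2% of all genes.

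Of 63 genes listed as textbook Polycomb targets, Hox and other developmental regulators, 40 were too low in counts to be tested, with no group mean above 1.71 CPM, and 2 of these had no count in any library. Among the 23 tested, Lhx2 was 52.9, 52.6, 48.5 and 41.5 CPM in GFRA1pos and 6.30, 6.08, 3.81 and 5.03 in GFRA1neg, a log2 fold change of 3.19 ± 0.24 (adjusted p = 6.2e-08). Lhx2 was 8.40, 13.9, 18.2, 19.96 and 13.2 CPM in KITpos, with a log2 fold change of 1.46 ± 0.22 (adjusted p = 2.9e-05) against GFRA1neg, and 14.3, 14.8, 12.3 and 15.3 in P6gonocyte, with -1.79 ± 0.22 (adjusted p = 2.1e-05) against GFRA1pos. GFRA1pos lay above every other library. The T (brachyury) gene had 287 counts over the 4 GFRA1pos libraries and 2 over the 4 GFRA1neg libraries, a ratio of 143 with a 95% exact interval of 39.3 to 1188 that covers counting error only. Hoxb3 was 17.5, 10.2, 9.01 and 18.3 CPM in GFRA1neg and 1.95, 4.78, 2.31 and 1.60 in GFRA1pos, a log2 fold change of -2.37 ± 0.47 (adjusted p = 0.0019). In KITpos it was 0.56, 2.09, 2.72, 0.512 and 0.693, with -3.33 ± 0.47 (adjusted p = 1.1e-05) against GFRA1neg. Hoxa3 had 15 counts in GFRA1pos and 156 in GFRA1neg, a log2 fold change of -3.37 ± 0.58 (adjusted p = 0.00051).

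Tbx3 was 35.8, 27.03, 36.7 and 27.02 CPM in GFRA1pos, 35.2, 22.8, 32.1 and 46.8 in GFRA1neg, 1.9602, 5.80, 6.61, 4.43 and 3.46 in KITpos and 6.94, 4.57, 8.49 and 6.05 in P6gonocyte. Both latter groups lay below both former ones. Its log2 fold change was -2.93 ± 0.29 (adjusted p = 1.6e-07) in KITpos against GFRA1neg and -2.28 ± 0.30 (adjusted p = 2.9e-05) in P6gonocyte against GFRA1pos. That of Hoxb4 was -2.70 ± 0.40 (adjusted p = 1.8e-05) in KITpos against GFRA1neg. Hoxc4 had 287 counts over the GFRA1pos and 11 over the P6gonocyte libraries, and Hoxc10 231 and 4. Their log2 fold changes were -4.26 ± 0.79 (adjusted p = 0.00048) and -5.33 ± 1.06 (adjusted p = 0.00080). In GFRA1pos against GFRA1neg 9 of 23 passed, 5 higher and 4 lower, in KITpos against GFRA1neg 11, 2 higher and 9 lower, and in P6gonocyte against GFRA1pos 11, 3 higher and 8 lower. The shares called were 39.1%, 47.8% and 47.8%, against 14.1%, 45.1% and 39.2% of all genes. With no count filter both latter counts were 17 of 61 targets tested, where 7025 and 5927 of 21502 genes were called. Without the 4 libraries highest in spermatid transcripts the counts were 6, 11 and 9 of 26 tested. In that setting 1268, 6462 and 3971 of 15861 genes were called. The median log2 fold change of the 23 targets was -0.17, -0.96 and -0.97. The 23 targets passed the filter in the group where they were high, so the counts of the main fit describe the 23 and not the list of 63.

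**Figure D5:**
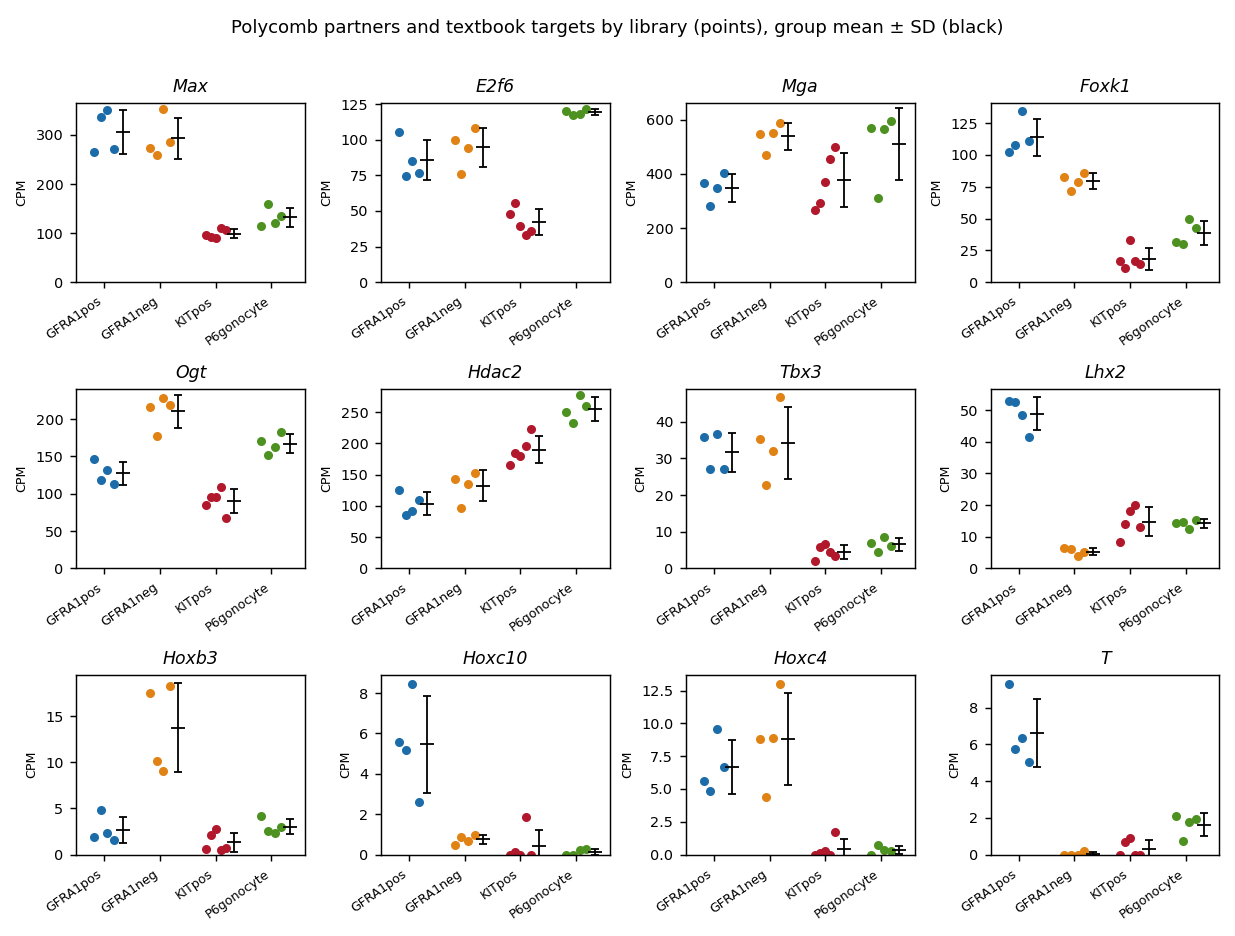
CPM of 6 Polycomb partners and 6 textbook targets in each library (points) with the group mean ± SD (black), one panel per gene, axes from 0. Max, E2f6 and, on average, Foxk1 are lowest in KITpos, Hdac2 is higher in P6gonocyte than in GFRA1pos, Lhx2 and T are highest in GFRA1pos, and Tbx3 is low in KITpos and P6gonocyte.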

How the data were processed

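The series holds RNA-seq of 17 libraries of sorted mouse testis germ cells. Per the labels' protocols, cells were sorted into Trizol LS, RNA amplification used Nugen Ovation V2, and sequencing was paired-end. Per the submitters' processing notes, reads were handled with Trim Galore, TopHat2 2.0.4 and Bowtie2 2.0.0-6 on the mm9 build, with no roles given. The authors deposited one table of raw counts per gene, of whole numbers. Which counter, annotation and strand setting made the counts is not given in the sources used here. Rows carry Entrez numbers, which were matched to RefSeq symbols for 23930 of 24013 rows, and the other 83 were left without a name.

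Genes with too few counts were dropped by filterByExpr, which left 15451. One edgeR 4.0.16 quasi-likelihood model over all 17 libraries, with TMM scaling and Benjamini-Hochberg adjustment over all genes tested, gave 6 comparisons and a test among the 4 groups. A call is an adjusted p under 0.05. The common biological coefficient of variation was 0.30. CPM use TMM-scaled library sizes, and the SE of a log2 fold change is its size divided by the root of F. Ratios of paired subunits used a pseudocount of 0.5 counts and an exact two-sided permutation test over libraries. Per-length levels used GENCODE exon lengths on GRCm38, and promoters came from RefSeq on GRCm38.p6, so neither shares the authors' build.

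Full per-library values are given for Ezh2, Eed, Suz12, Ring1, Rnf2 and Bap1. In each of the 3 leading comparisons, named genes also include up to 6 members per direction with the largest change among those called, and up to 4 partners and 4 targets with the smallest adjusted p. Other members were added so that each of the 36 has a value. One partner named by this rule is not reported here. The members and lists were chosen with earlier results of these data known. Counts of all 17 libraries were simulated from one mean per gene, with changes set in GFRA1pos alone, and fitted with all groups. In GFRA1pos against GFRA1neg, with 15203 genes tested, the test recovered 78.5% of 4-fold, 36.4% of 2-fold and 9.09% of 1.5-fold changes. Of the 85 calls 4 fell on genes left unchanged. The simulation changed 65 genes by 4-fold, 66 by 2-fold and 66 by 1.5-fold, far fewer than the 2185 genes called in the data. The adjustment is stricter where fewer genes change, so these shares do not give the power of the test in the data. Replicates of a group differed by more than sampling noise in all 28 pairs, with a chi-square per degree of freedom of 3.89 to 46.5. Alternatives were DESeq2 1.42.0, voom of limma 3.58.1, other scalings (RLE, upper quartile), other filters (none, or 1 CPM in 4 libraries), a fit of the compared groups alone, a block on the replicate number, and leaving out each library in turn.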

Additional observations from a re-analysis of the deposited data

Results flagged for a closer look

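In 10 of 144 groups of values (36 genes in 4 groups), 1 library stood apart from the others of its group by Dixon's criterion, which chance meets in about 1 of 20 groups. In KITpos, replicate 2 was low for Mtf2 at 92.5 CPM, with the others at 120.8 to 128.5. The same library was high for Pcgf2 at 74.2 CPM (others 46.2 to 52.7) and for Cbx2 at 142.7 CPM (others 98.1 to 105.7). In P6gonocyte, replicate 2 was high for Ring1 at 12.7 CPM, with the others at 6.05 to 6.21, and for Cbx2 at 165.5 CPM (others 130.7 to 136.2). In GFRA1pos, Rbbp7 was 202.9 CPM in replicate 1 (others 164.7 to 170.1), Bmi1 was 71.8 CPM in replicate 4 (others 60.4 to 61.4), Cbx8 was 9.56 CPM in replicate 2 (others 6.84 to 7.27) and Phc3 was 19.7 CPM in replicate 3 (others 23.9 to 24.5). In GFRA1neg, Asxl1 was 213.8 CPM in replicate 2 (others 248.0 to 253.3).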

How the results depend on the processing

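No gene of the list changed direction between calls under any alternative. Leaving out one library at a time, the number of the 36 genes called ranged from 7 to 9 for GFRA1pos against GFRA1neg, 17 to 22 for KITpos against GFRA1neg, 21 to 25 for KITpos against GFRA1pos, 14 to 17 for P6gonocyte against GFRA1pos, and 16 to 21 for P6gonocyte against GFRA1neg and against KITpos. Without the 4 libraries highest in spermatid transcripts, an alternative chosen after seeing the data, the genes called over the whole table numbered 1268 in place of 2185 for GFRA1pos against GFRA1neg and 3971 in place of 6060 for P6gonocyte against GFRA1pos. That setting has fewer libraries, and whether another cause adds to the drop was not tested. All other counts of members and of genes stayed within 1.5 times. With a pseudocount of 2 the 24 ratio differences kept their direction. With a library left out 22 did so. Rbbp7 to Rbbp4 in GFRA1pos against GFRA1neg (-0.03) turned to 0.03 without GFRA1pos replicate 3 and 0.10 without GFRA1neg replicate 4. Ring1 to Rnf2 in KITpos against GFRA1neg (-0.08) turned to 0.07 without GFRA1neg replicate 2 and 0.03 without KITpos replicate 3. Neither difference passed the test with all libraries, and the test was not rerun with a library left out. For Rbbp7 to Rbbp4 the 3 against 4 libraries left could not give a p under 0.0571. Low counts limit Cbx6, Cbx8, Ring1 and Phf19 most.

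Labels give the groups the same replicate numbers but do not say what a number shares, so the numbers were not taken as pairs. Deviations of libraries of the same number had correlations of 0.475, 0.517, 0.366 and 0.033 between GFRA1pos and GFRA1neg for numbers 1 to 4. The correlations were -0.258 to -0.026 between KITpos and GFRA1neg and 0.015 to 0.11 between P6gonocyte and GFRA1pos. The block was fitted over all groups together, and not for GFRA1pos and GFRA1neg alone. Of the 4 GFRA1pos libraries 3 correlated best with their own number in GFRA1neg, and of the 4 GFRA1neg libraries 1 did so. With the replicate number as a block, 9, 19, 23, 18, 20 and 22 of the 36 genes were called in GFRA1pos against GFRA1neg, KITpos against GFRA1neg, KITpos against GFRA1pos, and P6gonocyte against GFRA1pos, GFRA1neg and KITpos, and 29 among the 4 groups. The block moved the genes called over the whole table to 2584, 6858, 7410, 6409, 7071 and 7693 in the same order.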
